A study of Mus musculus with 8 samples.

Results

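The miR-221 and miR-222 cluster was represented on the arrays by 4 of 1079 murine miRs, the 3p and the 5p arm of each precursor, which were taken by name. Callus tissue came from CD-1 mice, aged 9 to 14 weeks and of both sexes in the study as a whole, 7 days after an osteotomy of the femur that was held by a pin and a clip. The Non-union group (4 specimens, P13 to P16) had a gap of 1.8 mm and stripped periosteum beside it, and the Union group (4 specimens, P17 to P20) had a gap of 0.25 mm with no stripping named. All animals were operated. At this time point the outcome is not visible, so that the group names stand for the operation and for the course known from this model. Each specimen was labelled with Cy3 and hybridized to 1 array of 1 slide. The labels do not give the sex of the single specimens, and P-values rest on the spread between these 8 specimens. In the limma fits, the SE, interval and p also draw the variance of each miR toward that of all fitted miRs.

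MiR-221 and miR-222 lie side by side on the X chromosome and are made from one primary transcript. Their 3p arms are the guide strands. They are known to repress the cell cycle inhibitor Cdkn1b (p27Kip1) and the receptor Kit, and they are best known from proliferating smooth muscle cells, from endothelium and from tumours. In mesenchymal stem cells a lower level of the pair has been linked to osteogenic and chondrogenic differentiation, which is why its level in early callus is of interest.

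Of the 4 members, 3 had a mature sequence in RefSeq (GRCm38.p6). The fourth is mmu-miR-222-5p. They are shown with the seed, bases 2 to 8 from the 5′ end, in capitals, because both guide arms carry the same seed and can therefore address the same sites:
mmu-miR-221-3p: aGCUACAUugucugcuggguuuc
mmu-miR-222-3p: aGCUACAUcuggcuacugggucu
mmu-miR-221-5p: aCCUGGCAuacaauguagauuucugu
The guide arms are identical over their first 8 bases. Over all 23 bases they share 11 positions (47.8%), and the first difference, counted from the 5′ end with miR-221-3p as the reference, is U9C. The passenger arm miR-221-5p carries another seed, which no other miR of the array with a RefSeq sequence shared.

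The hairpins are shown with the mature arms that RefSeq lists in capitals, so that the place of each arm can be seen. Mir221 lies at chrX:19146294-19146388 and Mir222 at chrX:19146893-19146971, both on the minus strand (GRCm38.p6), with 504 bases between them:
Mir221: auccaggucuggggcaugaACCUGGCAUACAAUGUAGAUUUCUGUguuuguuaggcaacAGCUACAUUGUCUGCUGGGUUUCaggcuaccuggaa
Mir222: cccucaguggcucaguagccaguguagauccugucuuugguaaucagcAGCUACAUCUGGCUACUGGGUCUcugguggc
RefSeq lists no other gene that overlaps either hairpin. A further miR of the array, miR-1928, has the seed of the guide arms:
miR-1928: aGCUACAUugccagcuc
It comes from chromosome 1 and shares its first 10 bases with miR-221-3p. It was detected on no array. Seeds could be compared only for the 840 of 1079 array miRs, and 244 of the 310 detected on all arrays, that had a RefSeq name.

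The arrays themselves were compared first. The merged signals of the detected murine miRs summed to between 183513 and 359995 units per array, with the lowest sum on P16 and the highest on P17. Row on the slide and group cannot be told apart, since the groups lay on separate rows. The counts over all miRs depended on single arrays, most of all on P19 of the Union group. When P19 was left out, the number of miRs with an unadjusted limma p under 0.05 rose from 43 to 115. With P14 left out as well it was 122, and without P14 alone 49. The number fell to 18 without P17, 20 without P15 and 21 without P18. P20 had the highest mean log2 signal of the myeloid and leukocyte markers (11.997 against 10.01 to 10.16 in the other Union arrays and 9.53 to 10.12 in the Non-union arrays). Values of the members are therefore also given with arrays left out. The tissue markers were checked as well. All 4 cartilage markers and all markers of endothelium and of smooth muscle and stroma were detected on every array, as were 4 of 6 skeletal muscle markers and 3 of 4 myeloid and leukocyte markers. The brain marker miR-124-3p was detected on no array, and the liver marker miR-122-5p was not detected on all of them.

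The guide arm mmu-miR-221-3p was detected on all 8 arrays and did not separate the groups. Its merged signal, the background-corrected signal of a miR over its 40 spots in linear units, was 224.3 on P13, 303.3 on P14, 225.3 on P15 and 179.8 on P16 in the Non-union group. In the Union group it was 345.9 on P17, 236.7 on P18, 198.8 on P19 and 229.5 on P20. The highest and the lowest Union value enclose all but P16 of the Non-union group, so that the groups overlapped almost fully. The means were 233.2 ± 51.4 (SD, n = 4) and 252.7 ± 64.2 (SD, n = 4) units.

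After quantile normalization, which gives all arrays the same distribution of signals, the log2 signal of miR-221-3p was 7.75, 8.10, 7.94 and 7.87 on P13 to P16. It was 8.08, 7.75, 7.79 and 7.84 on P17 to P20. P14 and P17 were high and the other 6 arrays lay close together. P13 and P18 received the same value because miR-221-3p held the same rank on both. The mean was 7.91 ± 0.15 (SD, n = 4) for Non-union and 7.86 ± 0.15 (SD, n = 4) for Union callus. Non-union minus Union, this was a log2 difference of 0.05 (SE 0.18, 95% interval -0.35 to 0.45, limma adjusted p = 0.864). The SE is larger than these SDs alone would give, since limma draws the variance toward that of all tested miRs. Permuting the arrays gave an exact two-sided p = 0.629, in a design that cannot go below 0.0286. As a fold change the difference was 1.04, with an interval from 0.784 to 1.37, which does not reach the fold change of 2 that the study used as a criterion in either direction.

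MiR-222-3p was likewise detected on all arrays, at a lower signal of its own probes. Its merged signal was 36.3 on P13, 34.5 on P14, 24.2 on P15 and 19.9 on P16. In the Union group it was 46.7 on P17, 35.7 on P18, 23.6 on P19 and 17.02 on P20. Both the highest and the lowest value came from the Union group, with the whole Non-union group between them. The means were 28.7 ± 7.95 (SD, n = 4) and 30.8 ± 13.1 (SD, n = 4) units.

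The normalized log2 signal of miR-222-3p was 5.13, 5.06, 4.67 and 4.77 on P13 to P16 and 5.13, 4.95, 4.60 and 4.22 on P17 to P20. The Union group was the more scattered one, and P20 lay lowest. The means were 4.91 ± 0.22 (SD, n = 4) and 4.73 ± 0.40 (SD, n = 4). The log2 difference was 0.18 (SE 0.24, 95% interval -0.37 to 0.73, limma adjusted p = 0.632; two-sided exact permutation test, p = 0.486), a fold change of 1.13 with an interval from 0.775 to 1.66. Without P20 the difference was 0.01, and without P17 it was 0.32, so that its size rested on single Union arrays. In P20 the 2 markers of smooth muscle and stroma also had their lowest mean, 4.83 against 5.48 to 6.42 on the other 7 arrays. This low mean came from miR-145-5p, which was at 1.96 on P20 against 3.17 to 4.43 elsewhere. The other marker, miR-143-3p, was not lowest on P20. It was at 7.65 ± 0.18 (SD, n = 4) in the Union group. The lowest sum of their merged signals, 178.5 units, was on a Non-union array. The myeloid and leukocyte markers had their highest mean on P20. The part of either marker list in the value of P20 was not tested. In bulk callus, fewer cells of a type and less RNA per cell cannot be told apart.

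**Figure D1:**
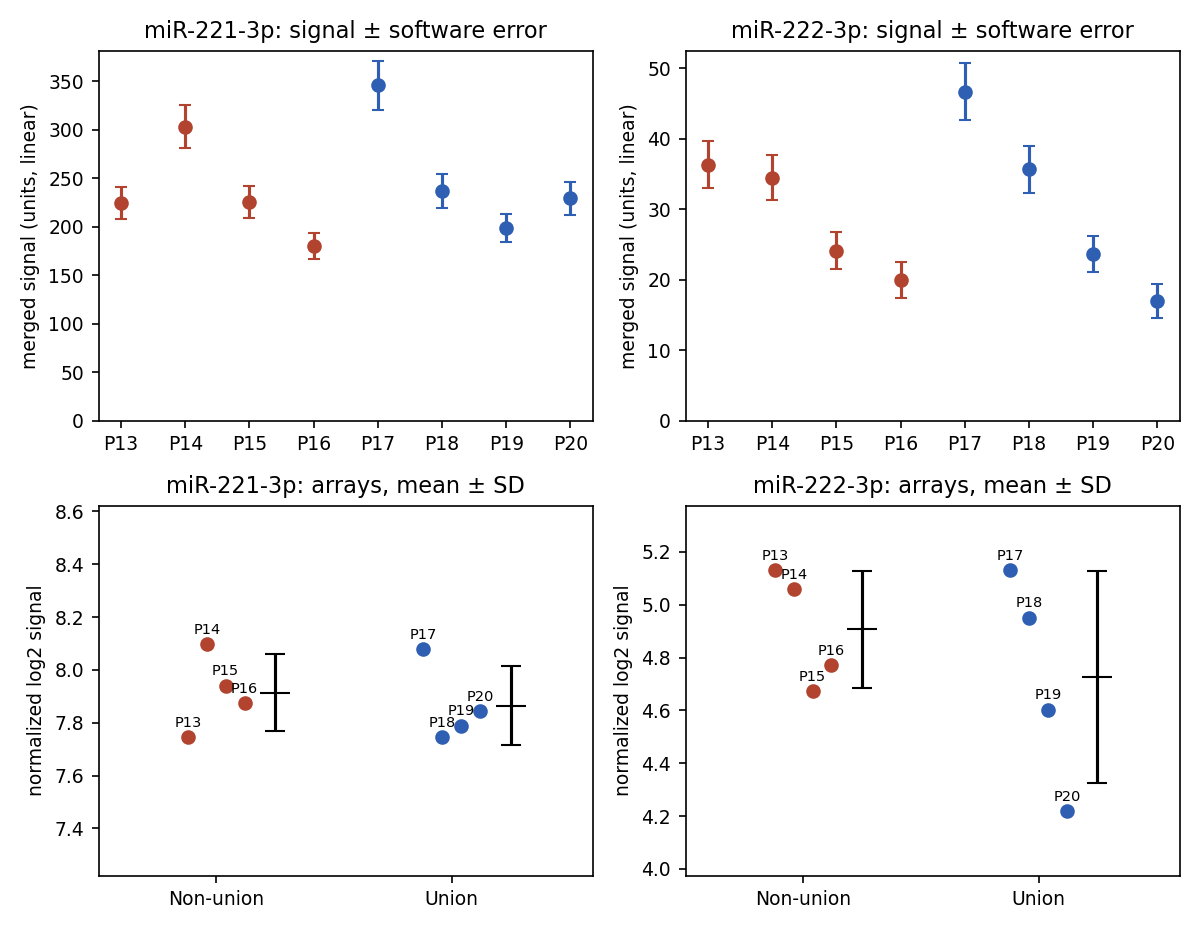
Signals of miR-221-3p (left) and miR-222-3p (right), with Non-union arrays in red and Union arrays in blue. Upper panels show the merged signal of each array in linear units with the error given by the scanner software, and lower panels show the normalized log2 signal of each array beside the mean and SD of its group (n = 4), on axes of equal span. The groups overlap in all panels, and P20 is lowest for miR-222-3p (4.22).

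Neither guide arm met a criterion of the study. The adjusted limma p was under 0.05 for 0 of the 2 tested members, against 0.323% of the 310 tested miRs (1 miR). Before adjustment 0 of 2 were under 0.05 as well, as the limma p was 0.784 for miR-221-3p and 0.473 for miR-222-3p, against 13.9% of all tested miRs under 0.05. A fold change of 2 or more was reached by neither, against 8.39% of all tested miRs. The median log2 difference of all tested miRs was 0.15, so that miR-221-3p lay 0.10 below and miR-222-3p 0.03 above the median. Without P14 and P19 the differences were -0.04 for miR-221-3p and 0.10 for miR-222-3p, with the limma p at 0.854 and 0.762 before adjustment.

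The place on the slide was taken into account in a further fit, chosen after the values had been seen. By the file headers, P13 to P16 lay in columns 1 to 4 of one row and P17 to P20 in columns 1 to 4 of the other, so that each column held 1 array of each group. Within the columns the log2 difference of miR-221-3p was -0.33, 0.35, 0.15 and 0.03, with both signs present. That of miR-222-3p was 0, 0.11, 0.07 and 0.55, and its signal was higher in columns 1 and 2 than in columns 3 and 4 in both groups. With the column as a block the differences stayed 0.05 (SE 0.21) and 0.18 (SE 0.21), with the limma p at 0.819 and 0.405 before adjustment. Over all tested miRs the block raised the number with an adjusted p under 0.05 from 1 to 13. The part of the column in the signal of miR-222-3p was not tested.

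MiR-221-3p varied little between the arrays. Its normalized signal spanned 0.35 on the log2 scale over all 8 arrays, a factor of 1.28 between the lowest and the highest array. The residual SD within the groups was 0.15, or a factor of 1.11. Among all tested miRs, 10 of the 310 tested miRs (3.23%) had a smaller one, and the median over all tested miRs was 0.44. The software put the error of the merged signal at 7.33% to 7.45% of its value on each array. MiR-222-3p spanned 0.91, a factor of 1.88, with a residual SD of 0.32 that 102 miRs (32.9%) undercut. Its software error was larger, from 8.62% on P17 to 14.1% on P20, as its signal was nearer to the background.

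**Figure D2:**
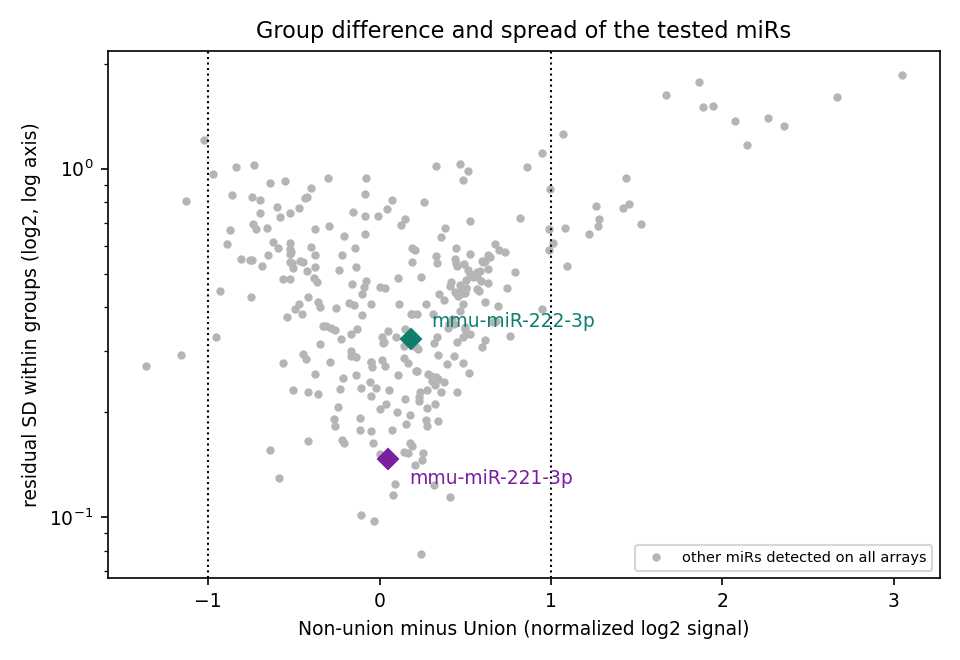
Difference of the group means in normalized log2 signal (Non-union minus Union, x axis) against the residual SD within the groups (log axis) for the 310 miRs detected on all arrays. MiR-221-3p (purple, 0.05 and 0.15) lies among the miRs with the smallest spread and miR-222-3p (green, 0.18 and 0.32) has more (102 miRs lie lower), both inside the dotted lines at a fold change of 2.

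Single probes gave the same picture as the merged signals. Each guide arm was measured by 2 probes with 20 spots each, and the merged signal is the sum of both. For miR-221-3p the probe A_54_P2640 gave 65.2 to 128.3 units and the probe A_54_P3830 gave 114.6 to 217.6 units. Their log2 ratio stayed between -0.88 and -0.76 on all arrays, with a mean of -0.82 in the Non-union and -0.80 in the Union group (two-sided exact permutation test, p = 0.514). By single probe, the log2 difference between the groups was 0.04 (SE 0.18) and 0.06 (SE 0.18). Single spots of one probe on one array varied by 3.28% to 11.8% (SD over mean).

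For miR-222-3p the probe A_54_P2643 gave 5.95 to 17.4 units and the probe A_54_P2644 gave 11.1 to 29.3 units. Their log2 ratio ranged from -0.89 to -0.62, with means of -0.73 and -0.80 (two-sided exact permutation test, p = 0.371). The single probes gave log2 differences of 0.22 (SE 0.25) and 0.16 (SE 0.24). Of the 40 spots of miR-222-3p, the number well above background was 40 on P13, P14 and P17, 39 on P15 and P18, 37 on P19, 31 on P16 and 24 on P20. All 320 spots of miR-221-3p over the arrays were well above background. The array with the lowest miR-222-3p signal was thus also the one with the fewest spots above background, and no spot of any member was saturated.

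Neither passenger arm was detected. MiR-221-5p was called undetected on 8 of 8 arrays, and so was miR-222-5p. The signals of the 2 probes of miR-221-5p lay between -1.71 and 0.63 units, with errors of 1.33 to 1.503 units, and 11 of these 16 values were at or below 0. The 3 probes of miR-222-5p lay between -1.27 and 0.92 units, with errors of 0.863 to 1.05 units, and 16 of 24 values were at or below 0. The sign went mostly with the probe. A_54_P00004842 of miR-221-5p and A_54_P00004925 and A_54_P00004926 of miR-222-5p were below 0 on every array. A_54_P00004927 of miR-222-5p was above 0 on every array, and A_54_P00004843 of miR-221-5p had both signs. The largest value relative to its error was 1.35 times the error in size, and it was below 0 (A_54_P00004925 on P15). Above 0, the largest was 1.05 times its error (A_54_P00004927 on P15). The lowest merged signal of any miR that was called detected ranged from 2.16 to 2.39 units between the arrays. This is a sum over the probes of a miR, while the values above are single probes. A merged signal of the 5p arms below this level would not have been seen, and the limit for these arms may lie higher. Of the 320 spots of miR-221-5p, 2 were well above background, both on P17, and none of the 320 of miR-222-5p was.

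**Figure D3:**
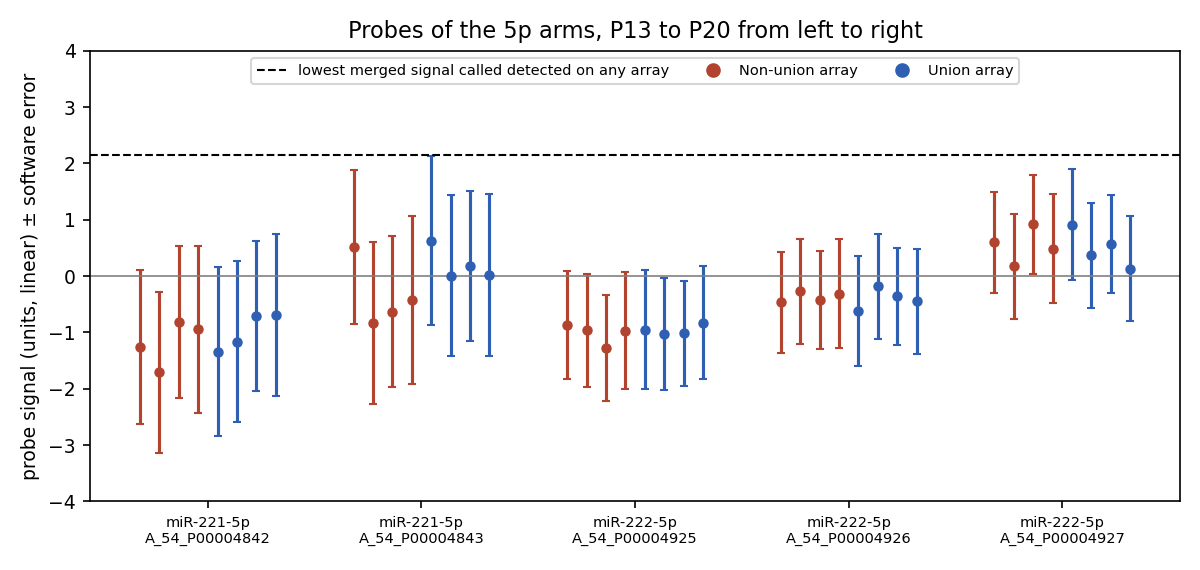
Signal of each probe of miR-221-5p (2 probes) and miR-222-5p (3 probes) on the arrays P13 to P20 from left to right, in linear units with the error of the scanner software. Non-union arrays are red and Union arrays blue. All points lie between -1.71 and 0.92 units, with a sign that goes mostly with the probe. They are below the dashed line at the lowest merged signal that was called detected (2.16 units). The line is a sum over the probes of a miR, and the points are single probes.

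Both precursors therefore showed a guide arm on every array and a passenger arm on none. Of the 384 precursor names with probes for both arms, 59 had this pattern, 61 had the opposite one with the 5p arm on all and the 3p arm on no array, 43 had both arms on all arrays and 155 had neither arm on any. The level of a 3p arm was not set against that of its 5p arm, since these are different probes.

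As both guide arms come from one transcript, their ratio within an array was compared next. The log2 difference of miR-221-3p minus miR-222-3p was 2.62, 3.04, 3.27 and 3.10 on P13 to P16 and 2.95, 2.80, 3.19 and 3.63 on P17 to P20. P13 was lowest and P20 highest, and the groups overlapped. The means were 3.01 ± 0.28 (SD, n = 4) and 3.14 ± 0.36 (SD, n = 4). The difference between the groups was -0.13 (two-sided exact permutation test, p = 0.600), and without P20 it was 0.03. The size of the ratio itself depends on the probes and is no ratio of molecules.

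Without normalization miR-221-3p followed the brightness of the arrays. Its log2 merged signal correlated with the log2 sum of all merged signals (8 arrays, Pearson's r = 0.893, exact permutation p = 0.00298, adjusted p = 0.0208 over 7 relations; Spearman's rho = 0.952, exact permutation p = 0.00114, adjusted p = 0.00799). Without P16 and P17, the arrays farthest from the median, r was 0.646 (exact permutation p = 0.153) and rho was 0.886 (exact permutation p = 0.0333). For miR-222-3p r was 0.733 (exact permutation p = 0.0343, adjusted p = 0.0899) and rho 0.643 (exact permutation p = 0.0962, adjusted p = 0.337), and without these arrays r was 0.453. After normalization the relation with the sum was weaker, with r = 0.368 for miR-221-3p (exact permutation p = 0.381, adjusted p = 0.533) and r = 0.407 for miR-222-3p (exact permutation p = 0.314, adjusted p = 0.533).

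No correlation between the arms was seen once the arrays were normalized. Over 8 arrays, with little spread in miR-221-3p, a relation could be missed. With 1 array left out, r after normalization ranged from 0.06 to 0.54. Before normalization r was 0.729 (exact permutation p = 0.0385, adjusted p = 0.0899; rho = 0.548, exact permutation p = 0.171, adjusted p = 0.366). Without P14 and P17 it fell to 0.424. After normalization r was 0.282 (exact permutation p = 0.500, adjusted p = 0.555) and rho 0.127 (exact permutation p = 0.764, adjusted p = 0.891). Without P14 and P17, the arrays with the most miR-221-3p, r was -0.49 (exact permutation p = 0.325), so that the positive sign rested on these arrays. In deviations from the group means r was 0.239 (exact permutation p = 0.555, adjusted p = 0.555; rho = -0.05, exact permutation p = 0.935, adjusted p = 0.935). Without the same arrays it was -0.83 over 6 arrays (exact permutation p = 0.0417, not adjusted).

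**Figure D4:**
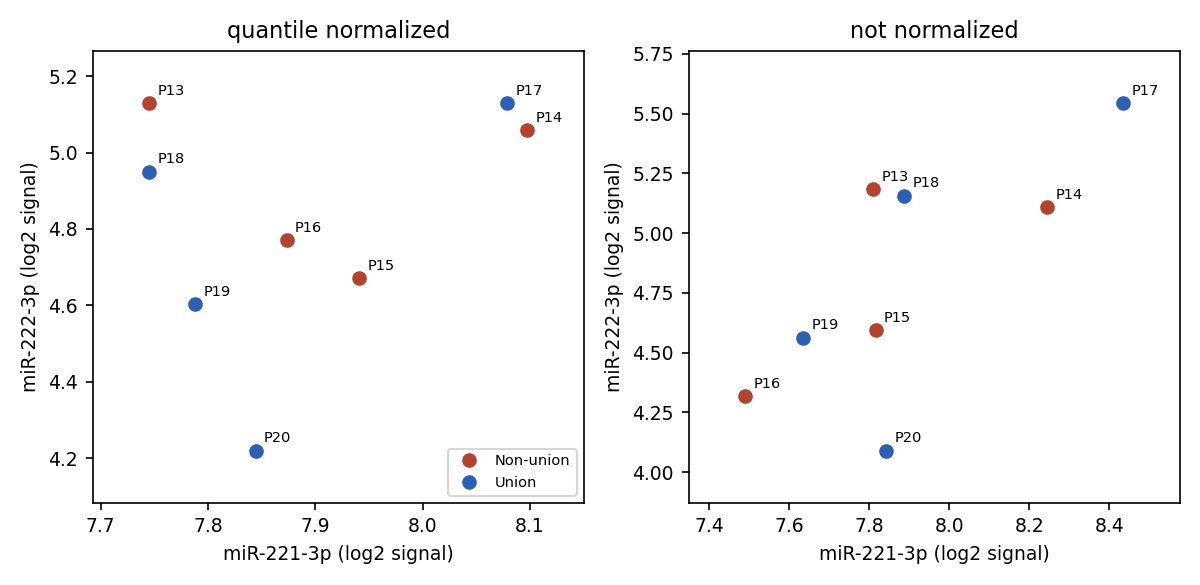
Log2 signal of miR-221-3p (x axis) against that of miR-222-3p (y axis) on the 8 arrays, quantile normalized on the left and not normalized on the right. Non-union arrays are red and Union arrays blue. Pearson's r is 0.729 without normalization and 0.282 with it.

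Among the other 309 tested miRs, those most like each guide arm were found by Pearson's r over the 8 arrays, as a description. For miR-221-3p they were miR-451, a miR of red blood cells (r = 0.7497), miR-193-3p (r = 0.703) and miR-101a-3p (r = 0.702), while miR-222-3p came only at place 36. The normalized log2 signal of miR-451 was 13.26 on P14 and 13.15 on P17, and between 11.47 and 12.33 on the other arrays. These were the arrays with the most miR-221-3p. The mean of the 3 red blood cell markers on the array that were detected was highest there too, 8.61 on P14 and 9.19 on P17 against 7.04 to 7.96 elsewhere. This mean includes miR-451 itself, so that it is not a separate observation. The part of red blood cells in the signal of miR-221-3p was not tested.

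For miR-222-3p the most alike were miR-714 (r = 0.867), miR-1897-3p (r = 0.816) and miR-145-5p, a miR of smooth muscle and stromal cells (r = 0.791), and miR-221-3p came at place 79. The signals of miR-714 (1.22), miR-1897-3p (4.25) and miR-145-5p (1.96) were lowest on P20, as was that of miR-222-3p. MiR-714 was weak in both groups, with means of 2.48 for Non-union and 2.23 for Union callus. On P20 only 24 of the 40 spots of miR-222-3p were well above background. The part of low signal in this likeness was not tested. None of the 6 miRs named for likeness had an unadjusted limma p under 0.05. Their log2 differences ranged from -0.16 for miR-101a-3p to 0.53 for miR-145-5p.

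A list of 12 miRs known from vascular smooth muscle, endothelium and vessel injury was set beside the cluster. Of these, 11 were tested, and 0 had an adjusted limma p under 0.05 in either direction. By unadjusted p, 2 of 11 were higher and 0 lower in the Non-union group, while 9.68% of all tested miRs were higher (30 miRs) and 4.19% lower (13 miRs). These were miR-31-5p, with a value of 1.52 (SE 0.43, limma adjusted p = 0.288), and miR-132-3p, known from activated endothelium and inflammation, with 0.95 (SE 0.28, the same adjusted p). The differences in the list ranged from -0.60 to 1.52. The median of the list was 0.27, beside 0.15 over all tested miRs. Without normalization the median of the list was -0.06, beside -0.10 over all tested miRs.

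Of 15 miRs known to act on osteoblast or chondrocyte differentiation, 11 were tested. Again 0 passed after adjustment, and by unadjusted p 3 of 11 were higher and 0 lower in the Non-union group (9.68% and 4.19% of all tested miRs). They were the cartilage miRs miR-140-5p (log2 difference 1.46, SE 0.48, limma adjusted p = 0.288) and miR-140-3p (1.42, SE 0.47, the same adjusted p) and miR-214-3p, known to restrain osteoblasts (0.75, SE 0.30, limma adjusted p = 0.322). The median of the list was 0.44, beside 0.15 over all tested miRs. With quantiles taken from detected miRs alone it was 0.032, beside 0.027 over all tested miRs.

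Since the cluster is X-linked and animals of both sexes were used, the other miRs of this chromosome were looked at. Of the 310 tested miRs, 244 had a RefSeq name, and 25 of those came from the X chromosome alone, the guide arms of the cluster included. None had an adjusted limma p under 0.05. By unadjusted p, 13.9% of all tested miRs passed, 9.68% higher and 4.19% lower. Of the 25 X-linked ones, 4 were higher in the Non-union group (miR-224-5p, miR-351-5p, miR-362-5p and miR-503-5p) and 1 was lower (miR-223-3p, the myeloid miR, at -1.13, SE 0.49, limma adjusted p = 0.346). P20, the array with the highest mean of the myeloid and leukocyte markers, had 13.83 of miR-223-3p in log2 signal. On the other Union arrays it was 11.42 to 12.05. The marker mean includes miR-223-3p itself, so that it is not a separate observation. Without P20 the difference of miR-223-3p was -0.60 (SE 0.24, limma adjusted p = 0.286). Its unadjusted limma p was 0.0464 with all arrays and 0.0366 without P20. The differences of the higher ones ranged from 0.61 for miR-362-5p to 2.67 for miR-351-5p. MiR-351-5p had a Union mean of -0.27 ± 2.13 (SD, n = 4), against 2.41 ± 0.78 (SD, n = 4) for Non-union. No merged signal called detected was below 2.16 units, so that normalization placed Union values of miR-351-5p under the level of detected signals. The size of its difference rested on these low values. The median of the X-linked miRs was 0.34, beside 0.15 over all tested miRs. Sex could not be entered in the fit, as the labels do not give it. The values of the X-linked miRs therefore do not show whether sex differed between the groups.

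**Figure D5:**
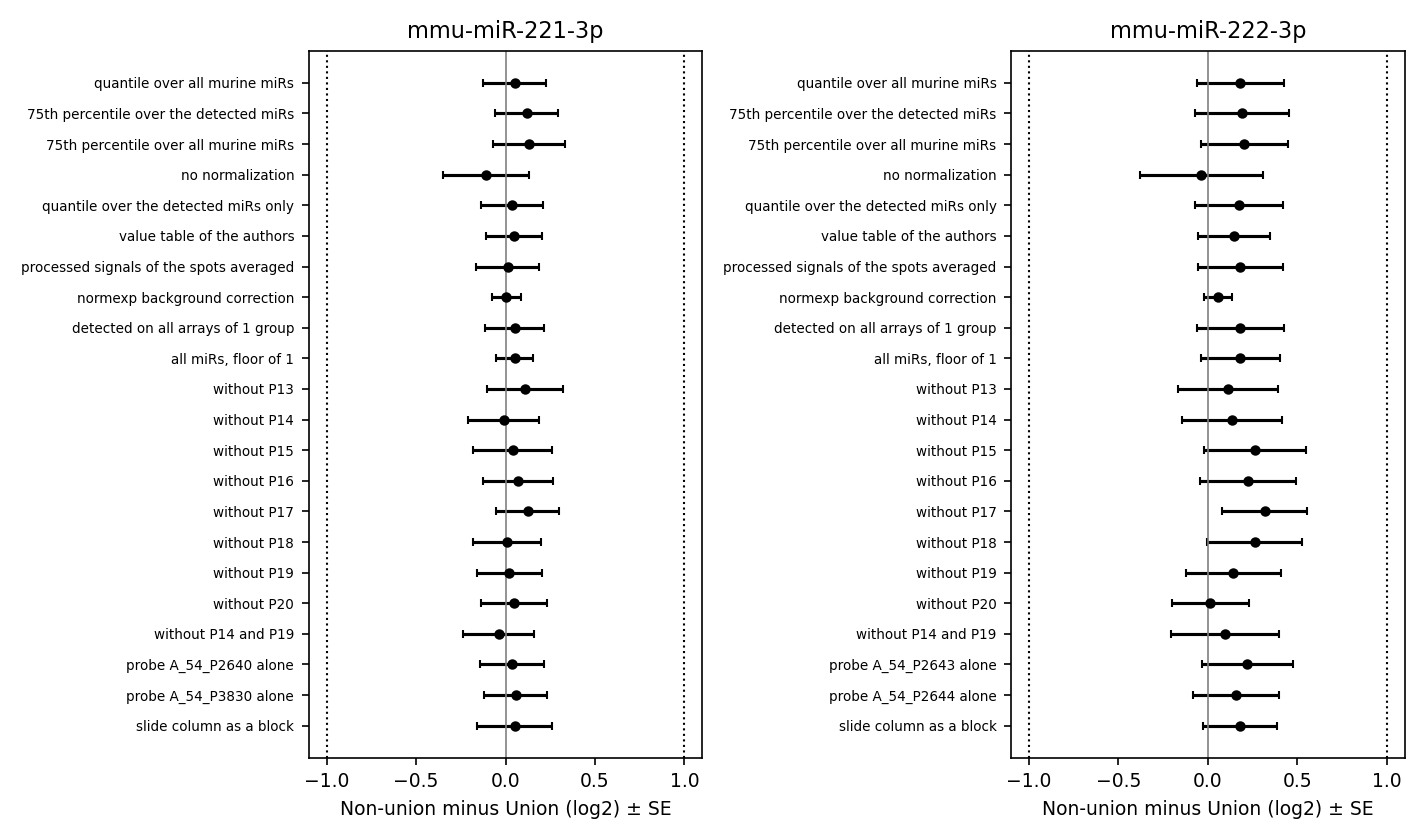
Log2 difference (Non-union minus Union) of miR-221-3p (left) and miR-222-3p (right) with its SE in the fit used here (top), under other normalizations, corrections and filters, with arrays left out, and by single probe. Dotted lines mark a fold change of 2. No point lies beyond 0.13 for miR-221-3p or 0.32 for miR-222-3p.

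The sign of the differences depended on the scaling. Without normalization the difference of miR-221-3p was -0.11 (SE 0.24) and that of miR-222-3p was -0.04 (SE 0.34), where the median of all tested miRs moved to -0.10. Relative to that median they were -0.01 and 0.07. Over 22 alternatives each, the unadjusted p stayed above 0.05 for both members, with the smallest at 0.500 for miR-221-3p and 0.227 for miR-222-3p.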

How the data were processed

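Callus RNA of 8 CD-1 mice was hybridized to the 8 arrays of 1 slide. Scanner output of Agilent Feature Extraction 10.10.1.1, as deposited, holds linear intensity values (signal) per spot, per probe and merged per miR, with detection calls. The software sets the merged signal of an undetected miR to 0.1. The authors also deposited a table of quantile normalized log2 values, used here as an alternative.

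From the merged signals, log2 values were taken and quantile normalization was run on the 1079 murine miRs. The 310 miRs detected on every array were fitted with limma 3.58.1 in R 4.3.3 (lmFit, eBayes, two-sided, Benjamini-Hochberg over all 310), as Non-union minus Union. Single values were also compared by exact permutation of the arrays. Python 3.11.15, numpy 2.4.6, pandas 2.3.3, scipy 1.17.1 and matplotlib 3.10.9 did the rest. The fit was checked on simulated data. Arrays have no read depth, and their number limits the precision. The groups lie on separate rows of the slide, and the slide column was fitted as a block in an alternative chosen after seeing the data.

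The members and lists were chosen with earlier results of these data known. Named were the 4 members, the miRs with the seed of miR-221-3p, list members with an unadjusted limma p under 0.05 and the 3 miRs most alike each detected member. The lists were a vascular and smooth muscle list, an osteoblast and chondrocyte list, the X-linked miRs and markers of endothelium, smooth muscle and stroma, cartilage, skeletal muscle, red blood cells, myeloid cells and leukocytes, liver and brain. Alternatives were other normalizations, spot averages, a normexp background correction (offset 50), other filters, the authors' table, a t-test on the same values, single probes, and arrays left out.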

Additional observations from a re-analysis of the deposited data

Results flagged for a closer look

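For the guide arms, their ratio and the marker lists, the gap of the outermost array was set against the range of its group (Dixon's ratio), and 1 of 18 such groups was past the 95% critical value. Chance flags about 1 in 20 groups, or 0.9 of 18. It was the mean log2 signal of the myeloid and leukocyte markers in the Union group, where P20 had 11.997 against 10.01 to 10.16 on the other arrays. On the same array miR-222-3p was lowest (4.22) and miR-221-3p was not set apart (7.84). No value of the cluster itself was so far from its group.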

How the results depend on the processing

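The labels give the groups no shared replicate numbers, so that arrays were paired by slide column alone. With 1 array left out, the log2 difference ranged from -0.011 to 0.12 for miR-221-3p and from 0.01 to 0.32 for miR-222-3p, the difference of their ratio from -0.25 to 0.033 and their correlation from 0.0574 to 0.539. The signs turned for miR-221-3p without normalization (-0.11), without P14 (-0.011) and without P14 and P19 (-0.038), for miR-222-3p without normalization (-0.037), and for the ratio without P20 (0.033). Among these settings the correlation had an unadjusted p under 0.05 without normalization (0.729, exact permutation p = 0.0385, adjusted p = 0.0899 over 7 relations). Requiring 1 spot well above background, miR-221-5p was seen on 1 array (P17).

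Over all tested miRs, the count with an adjusted p under 0.05 was 1, and ranged from 0 to 12 with 1 array left out (12 without P19). It was 0 with the 75th percentile over all murine miRs, without normalization, with normexp, with all murine miRs tested and with the t-test, 2 with quantiles of detected miRs, 3 with miRs detected in 1 group, 13 with the slide column as a block (chosen after seeing the data), and 21 without P14 and P19. The count by unadjusted p (43) ranged from 18 to 115 with 1 array left out, and was 122 without P14 and P19 and 78 with the slide column as a block. The count with a fold change of 2 (26) ranged from 23 to 49 with 1 array left out. It was 14 and 13 with the 75th percentiles over the detected and over all miRs, 17 with quantiles of detected miRs, 12 in the authors' table, 4 with normexp, 55 with miRs detected in 1 group, 71 with all murine miRs and 65 without P14 and P19.

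The median of the vascular list was -0.062 without normalization. That of the osteoblast and chondrocyte list ranged from 0.19 to 0.64 with 1 array left out, and was 0.22 and 0.24 with the 75th percentiles, -0.0040 without normalization, 0.032 with quantiles of detected miRs and with all murine miRs, 0.23 in the authors' table and 0.067 with normexp. The median of the X-linked miRs was 0 with all murine miRs, most of which lay at the floor of 1, where limma called its variance estimate unreliable. The cause of these changes was not tested.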
